A study of Homo sapiens with 6 samples.

Results

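The 26S proteasome is the protease that degrades proteins tagged with ubiquitin, and the genes of its subunits and assembly factors were followed in SKOV3 cells treated with an siRNA against the long non-coding RNA NRCP. The members were the probes whose annotated symbol began with PSMA to PSMG and a number, or was POMP or ADRM1, without the interferon-induced catalytic subunits PSMB8 and PSMB9. This gave 68 probes of 44 genes, out of 20046 named genes on the array, and each gene was read on the probe with the highest mean signal. Family members without a named probe were not analysed here.

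The line SKOV3 was derived from a human ovarian carcinoma. Its cells received control siRNAs (sicontrol) or an siRNA to NRCP (siNRCP) 48 h before, and each of the 3 samples per group was read on 1 Illumina BeadArray. All 6 samples came from the same line and no genetic change was given for either group. Whether the replicates were separate cultures is not stated, so a p-value reflects only how far these samples spread, which may be technical. NRCP had no named probe, and its own level was not analysed here.

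The proteasome is a barrel with a cap at one or both ends. The barrel, the 20S core, stacks rings of alpha subunits (PSMA genes), which form the gate, and rings of beta subunits (PSMB genes), some of which cut the substrate. The cap, the 19S particle, holds a ring of ATPases (PSMC genes) that unfold the substrate, ubiquitin receptors and a lid that removes ubiquitin (PSMD genes). Dedicated chaperones build both parts, and other activators (PSME genes) can replace the 19S particle. The transcription factor NFE2L1 is known to raise proteasome gene expression when proteasome activity is short, and carcinoma cells depend on the protease to clear misfolded proteins.

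Epithelial markers of the line were present. ERBB2, KRT8, KRT18, KRT19, EPCAM, PAX8, MUC1 and CDH1 lay above background on all 6 arrays, while the blood, endothelial and liver markers PTPRC, CD3E, VWF, CDH5 and APOA1 lay above it on 0 arrays. CD14 exceeded it on 1 array, PECAM1 on 3 and ALB on 4, with log2 signals of at most 6.66. Background was set on each array at the 95th percentile of the signals of 437 olfactory receptor probes, 6.41 to 6.49 log2. Raw mean intensity was 555 to 563 on the sicontrol arrays and 554, 373 and 486 on siNRCP arrays 1 to 3. All values below are log2 signals after quantile normalization, differences are siNRCP minus sicontrol, and a level was never set against that of another probe.

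Proteasome genes did not pass the test as a difference between siNRCP and sicontrol. Of the 44 genes, 0 were called lower and 0 higher by limma (adjusted p under 0.05, Benjamini-Hochberg over all 47231 probes), where 0.915% of all probes were called lower and 0.739% higher. At an unadjusted p under 0.05, 10 were lower and 2 higher, where 15.5% and 18.1% of the named genes above background were. The lowest adjusted p among them was 0.15. The log2 differences ran from -1.25 to 0.45 with a median of -0.30, and 35 of 44 were negative, whereas the median over all probes was 0 and over the 11558 named genes above background 0.02. In bulk RNA, fewer cells expressing a gene and less RNA of it per cell cannot be told apart.

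The siNRCP arrays did not read alike. Of the 44 genes 41 lay above background, each of them on all 6 arrays, and against the sicontrol mean their median was 0.16 on siNRCP array 1, -0.67 on array 2 and -0.51 on array 3. On the sicontrol arrays it was -0.02, -0.01 and 0.05. On siNRCP array 2, 33 of the 41 genes read below all 3 sicontrol arrays, as did 41.1% of the named genes above background. Array 3 had 29 of 41 (37.1% of named genes), and array 1 had 11 of 41 (37.8%). In contrast, 21 of 41 genes read above every sicontrol array on siNRCP array 1 (32.5% of named genes). On arrays 2 and 3 this was 6 of 41 each, against 45.0% and 46.9% of named genes. Array 1 was the highest of the 3 siNRCP arrays for 35 of the 41 genes, which was the case for 36.1% of the named genes above background. The standard deviation between the siNRCP arrays had a median of 0.51 over these genes, against 0.12 between the sicontrol arrays. Over the named genes above background these medians were 0.28 and 0.12, and the siNRCP value was the larger for 84.8% of them and for 38 of the 41 members.

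**Figure D1:**
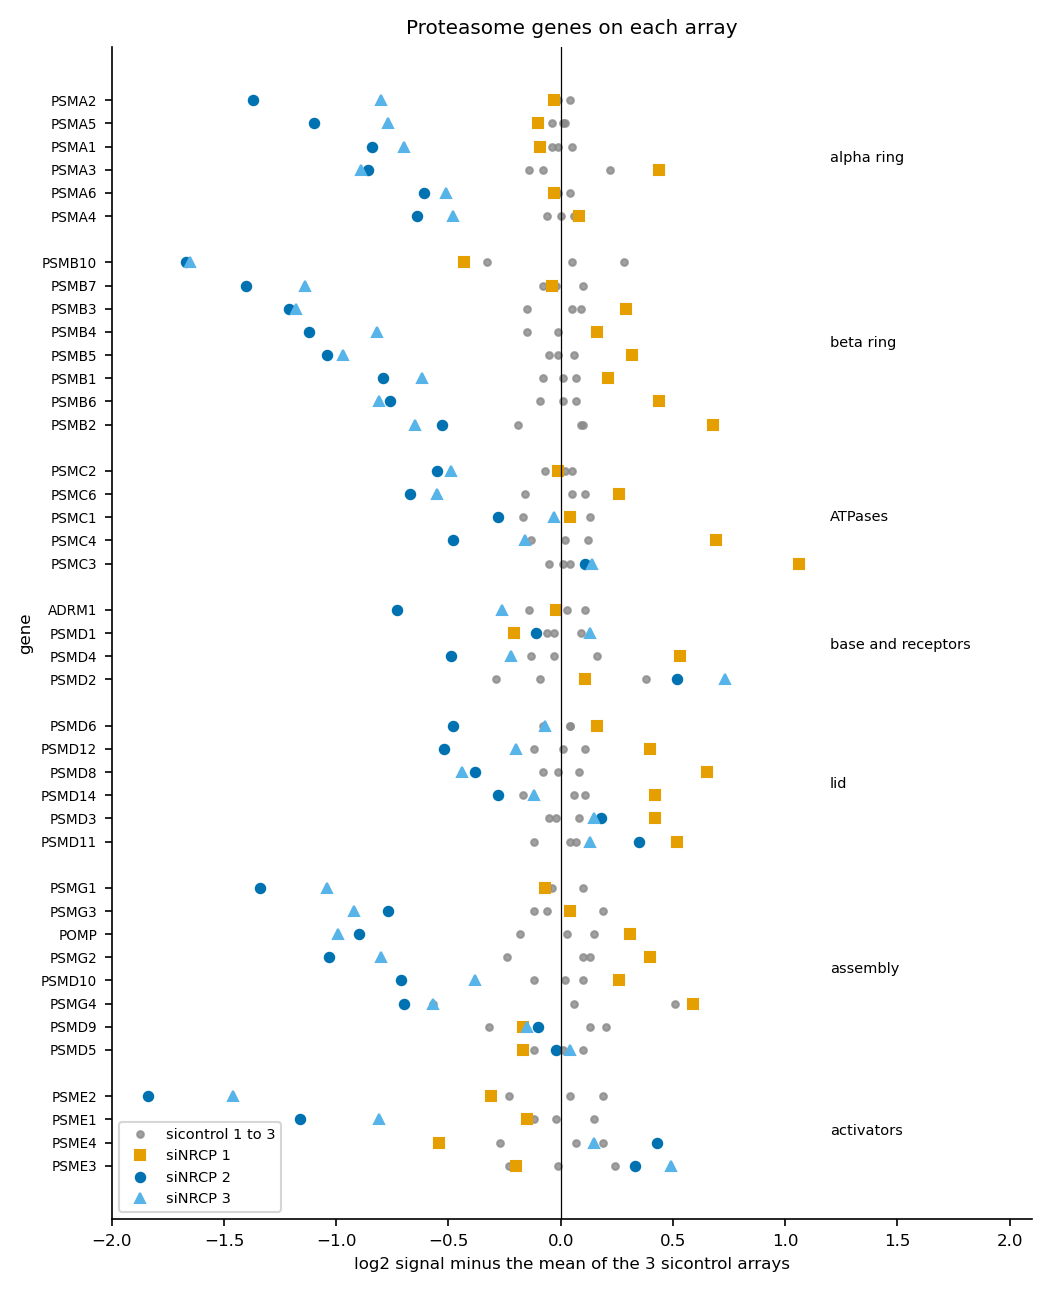
Log2 signal of the 41 proteasome genes above background on each array, minus the mean of the 3 sicontrol arrays, with genes on the vertical axis grouped by role. Grey points are the sicontrol arrays, orange squares siNRCP array 1, dark blue points siNRCP array 2 and light blue triangles siNRCP array 3. In the alpha and beta rings siNRCP arrays 2 and 3 lie left of every grey point for all 14 genes, while array 1 lies left of every grey point for 5 of the 14 genes and among or right of them for the others.

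The 20S core genes were low on siNRCP arrays 2 and 3. On both of these arrays all 14 core genes above background read below the 3 sicontrol arrays, as 33.2% of the named genes above background did, and siNRCP array 1 was the highest siNRCP array for all 14. The group differences of the 14 genes were all negative, from -1.25 to -0.17 with a median of -0.55, and the array medians were 0.12, -0.95 and -0.80 on siNRCP arrays 1 to 3. None of these genes passed at the adjusted p (0 of 14). At an unadjusted p under 0.05, 6 of 14 were lower, where 15.5% of the named genes above background were.

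Among the alpha ring genes, whose products form the outer rings and the gate of the barrel, the 6 above background had a median difference of -0.49. PSMA4 read 12.45, 12.57 and 12.52 in sicontrol and 12.59, 11.87 and 12.03 in siNRCP (-0.35 ± 0.18, SE, n = 3 per group; 95% interval -0.77 to 0.07; limma adjusted p = 0.46). Its siNRCP array 1 was the highest of all 6 and arrays 2 and 3 were the lowest, so the groups overlapped. The groups did not overlap for PSMA1, PSMA2, PSMA5 and PSMA6, all lower in siNRCP. Among the named genes above background 14.9% were separated downward. PSMA2, named after its values were seen, read 9.81, 9.74 and 9.77 in sicontrol and 9.74, 8.40 and 8.97 in siNRCP (-0.74 ± 0.30, adjusted p = 0.33). Its array 1 value was just under the lowest sicontrol array. PSMA8, the alpha subunit of the testis, lay at background on all 6 arrays.

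The beta ring holds the cutting sites, and its 8 genes above background had a median difference of -0.58. PSMB5, the chymotrypsin-like subunit that bortezomib inhibits, read 11.10, 11.06 and 11.17 in sicontrol and 11.44, 10.07 and 10.14 in siNRCP. It was thus above every sicontrol array on array 1 and about 1 log2 unit below them on arrays 2 and 3 (-0.56 ± 0.34, SE, n = 3 per group; 95% interval -1.35 to 0.22; limma adjusted p = 0.54). PSMB6, the caspase-like subunit, read 11.60, 11.70 and 11.76 against 12.12, 10.92 and 10.87 (-0.38 ± 0.31; adjusted p = 0.69). PSMB7, the trypsin-like subunit, read 12.06, 12.01 and 12.18 against 12.04, 10.68 and 10.94 (-0.86 ± 0.32; 95% interval -1.60 to -0.12; adjusted p = 0.28). All 3 catalytic genes were therefore within or above the sicontrol range on siNRCP array 1 and below it on the other two. The remaining genes, PSMB1 to PSMB4, had differences between -0.70 and -0.17. PSMB11, the beta subunit of the thymus, lay at background.

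The 2 lowest differences of all members belonged to genes known to be induced by interferon gamma. PSMB10, the catalytic subunit that replaces PSMB7 in the immunoproteasome, read 11.66, 12.27 and 12.04 in sicontrol and 11.56, 10.32 and 10.34 in siNRCP. The groups did not overlap, although array 1 lay close to the lowest sicontrol array (-1.25 ± 0.34, SE, n = 3 per group; 95% interval -2.04 to -0.46; limma adjusted p = 0.15). PSME2, a subunit of the 11S activator that opens the barrel for peptide production, read 11.11, 11.53 and 11.38 against 11.03, 9.50 and 9.88 (-1.20 ± 0.36; 95% interval -2.04 to -0.37; adjusted p = 0.18). Its partner PSME1, named after its values were seen, read 12.25, 12.52 and 12.36 against 12.23, 11.22 and 11.56 (-0.71 ± 0.24; adjusted p = 0.24). In all 3 genes siNRCP array 1 sat just under the lowest sicontrol array and arrays 2 and 3 lay far below. The excluded immunoproteasome genes, which are no members, read -1.25 ± 0.36 (PSMB9, adjusted p = 0.16) and -0.46 ± 0.26 (PSMB8, adjusted p = 0.51). This PSMB9 probe lay above background on 5 arrays, and a second one, above it on all 6, read only -0.62 ± 0.13 (adjusted p = 0.073). Other PSMB8 probes read -0.54, -0.27 and -0.02, the last above background on 2 arrays.

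The sequences upstream of these genes, and of the members at the other end of the range, are given because NFE2L1 and interferon regulatory factors act on such elements. They are the 250 bases before the start in RefSeq (GRCh38.p14), 5′ to 3′ on the gene's strand. Every gene, here and in the counts below, was searched in 1 window, the first listed. PSMD2 had 2 windows listed, and its other window was not searched. The start listed for PSMG1 lies inside its RefSeq gene span, which ends at 39183514, so its window overlaps that span. Capitals mark the core of the antioxidant response element bound by NFE2L1 (TGACNNNGC) and the core of the interferon response element (TTTC, any 2 bases, TTTC), each searched on both strands. PSMB10, PSME1, PSME2 and the chaperone gene PSMG1 come first, and PSMC3, PSMD2 and PSMD11 follow.
PSMB10 (chr16:67936851-67937100, minus strand): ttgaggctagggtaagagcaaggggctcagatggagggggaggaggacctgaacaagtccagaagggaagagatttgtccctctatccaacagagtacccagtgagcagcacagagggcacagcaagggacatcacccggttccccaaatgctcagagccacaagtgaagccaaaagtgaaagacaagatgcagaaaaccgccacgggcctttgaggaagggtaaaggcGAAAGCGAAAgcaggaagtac
PSME1 (chr14:24135944-24136193, plus strand): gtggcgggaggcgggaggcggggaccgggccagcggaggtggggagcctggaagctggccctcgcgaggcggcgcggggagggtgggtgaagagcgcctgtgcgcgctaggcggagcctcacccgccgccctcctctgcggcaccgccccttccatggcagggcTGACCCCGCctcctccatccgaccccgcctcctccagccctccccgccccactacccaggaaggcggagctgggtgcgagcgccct
PSME2 (chr14:24146611-24146860, minus strand): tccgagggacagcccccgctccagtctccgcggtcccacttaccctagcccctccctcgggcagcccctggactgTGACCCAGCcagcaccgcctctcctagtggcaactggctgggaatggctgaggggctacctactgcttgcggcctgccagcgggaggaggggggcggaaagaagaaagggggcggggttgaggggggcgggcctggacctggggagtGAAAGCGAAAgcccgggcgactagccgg
PSMG1 (chr21:39183452-39183701, minus strand): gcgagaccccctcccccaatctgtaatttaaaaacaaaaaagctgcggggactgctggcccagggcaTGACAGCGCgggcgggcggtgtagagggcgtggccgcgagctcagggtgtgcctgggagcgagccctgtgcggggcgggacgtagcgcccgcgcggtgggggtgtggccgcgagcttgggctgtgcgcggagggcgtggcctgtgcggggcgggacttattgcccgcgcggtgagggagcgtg
PSMC3 (chr11:47426440-47426689, minus strand): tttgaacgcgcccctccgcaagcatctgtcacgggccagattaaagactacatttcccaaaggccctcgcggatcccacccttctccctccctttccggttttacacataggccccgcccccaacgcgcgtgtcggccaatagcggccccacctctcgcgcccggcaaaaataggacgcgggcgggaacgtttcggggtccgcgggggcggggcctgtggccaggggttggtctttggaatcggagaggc
PSMD2 (chr3:184298991-184299240, plus strand): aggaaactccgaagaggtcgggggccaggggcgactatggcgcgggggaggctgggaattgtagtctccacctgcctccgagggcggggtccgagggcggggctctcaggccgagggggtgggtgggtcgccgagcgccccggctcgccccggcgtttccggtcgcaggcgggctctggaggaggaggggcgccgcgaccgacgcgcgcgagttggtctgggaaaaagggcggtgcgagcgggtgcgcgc
PSMD11 (chr17:32444260-32444509, plus strand): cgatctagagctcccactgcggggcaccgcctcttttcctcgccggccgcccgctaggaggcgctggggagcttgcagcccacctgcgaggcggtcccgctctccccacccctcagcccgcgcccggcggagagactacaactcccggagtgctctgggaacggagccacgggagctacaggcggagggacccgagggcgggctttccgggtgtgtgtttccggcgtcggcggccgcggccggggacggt

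Matches to the interferon element stood close to the start of PSMB10 and PSME2, at 21 and 28 bases before it, and the window of PSME1 held none. The antioxidant core was present in PSME1, PSME2 and PSMG1, and neither core was in the windows of PSMC3, PSMD2 and PSMD11. Of the 41 members above background 36 had a window, and 11 of these (30.6%) held the antioxidant core, against 3013 of all 27305 RefSeq windows and 12.3% of the 9310 windows of named genes above background. The interferon core was in 5 of 36 (13.9%, against 3.1% and 2.3%), which were PSMA4, PSMB4, PSMB10, PSME2 and PSMG4. A CCAAT box was in 41.7% (33.0% of all windows) and the Sp1 box GGGCGG in 63.9% (42.3% of all, 67.4% of those of named genes above background). Members with the antioxidant core had a median difference of -0.34 and those without it -0.28. With the core the differences ran from -1.2 to 0.25, the highest being that of PSMD3, whose window is not printed. For the interferon core these medians were -0.59 and -0.17, over 5 and 31 genes. The ETS core CCGGAA was in 41.7% of member windows (14.8% of all, 25.3% of those of named genes above background), with medians of -0.13 with it and -0.48 without it. A match describes letters in this window only, and binding was not measured.

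The 19S genes had group differences on both sides of 0. Of the 15 above background, 9 had a negative difference, with a median of -0.06 and a range of -0.35 to 0.45, and their array medians were 0.40, -0.38 and -0.12 on siNRCP arrays 1 to 3. None passed at the adjusted p (0 of 15). At an unadjusted p under 0.05, 1 was lower and 2 higher, where 15.5% and 18.1% of the named genes above background were. Arrays 2 and 3 both read below all sicontrol arrays for 7 of the 15 and above them for 4, where named genes above background gave 33.2% and 39.7%. Whether the core and the 19S particle differ was not tested.

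The ATPase genes encode the ring of motors that pull substrates into the barrel. PSMC2 read 11.58, 11.49 and 11.61 in sicontrol and 11.54, 11.01 and 11.07 in siNRCP (-0.35 ± 0.15, SE, n = 3 per group; limma adjusted p = 0.36). PSMC4 read 8.89, 9.04 and 9.14 against 9.71, 8.55 and 8.86, so that its high array 1 and low arrays 2 and 3 gave a difference of 0.02 ± 0.27 (95% interval -0.62 to 0.66; adjusted p = 0.99). PSMC3, a subunit of the same ring, read 10.21, 10.27 and 10.29 in sicontrol and 11.31, 10.36 and 10.39 in siNRCP (0.43 ± 0.24; adjusted p = 0.51). All its siNRCP arrays were above the sicontrol arrays, arrays 2 and 3 narrowly and array 1 clearly.

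The base of the cap and its ubiquitin receptors gave mixed values. PSMD2, a large scaffold subunit of the base, had the highest difference of all members and read 11.49, 10.82 and 11.02 in sicontrol and 11.22, 11.63 and 11.84 in siNRCP. The groups overlapped through sicontrol array 1 (0.45 ± 0.21, SE, n = 3 per group; 95% interval -0.04 to 0.95; limma adjusted p = 0.42). PSMD1, the other scaffold subunit, read 10.05, 9.91 and 9.93 against 9.75, 9.86 and 10.09 (-0.06 ± 0.11; 95% interval -0.33 to 0.20; adjusted p = 0.88). The receptor PSMD4 read 10.07, 10.18 and 10.37 against 10.74, 9.72 and 9.98 (-0.06 ± 0.25; adjusted p = 0.95). The receptor ADRM1 read 11.68, 11.43 and 11.60 against 11.55, 10.84 and 11.31 (-0.34 ± 0.18; adjusted p = 0.49). PSMD4 followed the order of the core genes, high on array 1 and low on arrays 2 and 3, whereas PSMD2 was higher on arrays 2 and 3 than on array 1.

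The lid removes ubiquitin before the substrate is unfolded. All 6 of its genes above background read above every sicontrol array on siNRCP array 1, as did 32.5% of the named genes above background. PSMD14, the enzyme that cuts ubiquitin off, read 11.39, 11.17 and 11.44 in sicontrol and 11.76, 11.06 and 11.21 in siNRCP (0.01 ± 0.18, SE, n = 3 per group; 95% interval -0.42 to 0.44; limma adjusted p = 0.99). PSMD11, a lid subunit linked to proteasome assembly in stem cells, read 8.46, 8.49 and 8.31 against 8.95, 8.77 and 8.55 (0.34 ± 0.12; 95% interval 0.05 to 0.62; adjusted p = 0.28). Its siNRCP arrays all lay above the sicontrol arrays, as they also did for the lid gene PSMD3 (0.25 ± 0.10; adjusted p = 0.35). Among the named genes above background 15.7% were separated upward. The differences of the lid genes had a median of -0.02.

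The 8 assembly genes all had negative differences, from -0.82 to -0.05. POMP, the chaperone that matures the beta ring, read 12.16, 12.49 and 12.37 in sicontrol and 12.65, 11.44 and 11.35 in siNRCP (-0.53 ± 0.33, SE, n = 3 per group; 95% interval -1.29 to 0.24; limma adjusted p = 0.56). PSMG1, a chaperone of the alpha ring, read 11.23, 11.25 and 11.39 against 11.22, 9.95 and 10.25 (-0.82 ± 0.30; 95% interval -1.51 to -0.13; adjusted p = 0.27). Both were low on arrays 2 and 3, and POMP was above the sicontrol range on array 1. Of the base chaperones, PSMD10 (gankyrin) read 10.22, 10.36 and 10.44 against 10.60, 9.63 and 9.97 (-0.28 ± 0.23; adjusted p = 0.69). PSMD9 read 7.51, 6.98 and 7.44 against 7.14, 7.21 and 7.16 (-0.14 ± 0.14; 95% interval -0.48 to 0.20; adjusted p = 0.76) and stayed within the sicontrol range on all 3 siNRCP arrays. The 8 assembly genes had array medians of 0.15, -0.74 and -0.69.

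The nuclear activators ran opposite to the core between siNRCP arrays, as did PSMD1, PSMD2, PSMD5 and PSMD9. The mean of siNRCP arrays 2 and 3 minus array 1 was 0.05 to 0.51 for those PSMD genes. Over the named genes above background this difference had a median of 0.12 and was negative for 4895 of 11558. PSME4 (PA200), an activator of nuclei and testis, read 11.32, 10.86 and 11.21 in sicontrol and 10.59, 11.56 and 11.28 in siNRCP (0.02 ± 0.25, SE, n = 3 per group; 95% interval -0.56 to 0.60; limma adjusted p = 0.99). PSME3 (REG gamma), a nuclear activator that needs no ubiquitin, read 10.49, 10.02 and 10.24 against 10.05, 10.58 and 10.74 (0.20 ± 0.20; adjusted p = 0.74). For both, siNRCP array 1 was the lowest of its group and arrays 2 and 3 were higher. PSMF1, an inhibitor of the core, lay at background on its only probe and allows no statement. Its probe read 6.06, 6.21 and 6.35 against 6.19, 6.16 and 6.13 (-0.05 ± 0.10; adjusted p = 0.91).

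**Figure D2:**
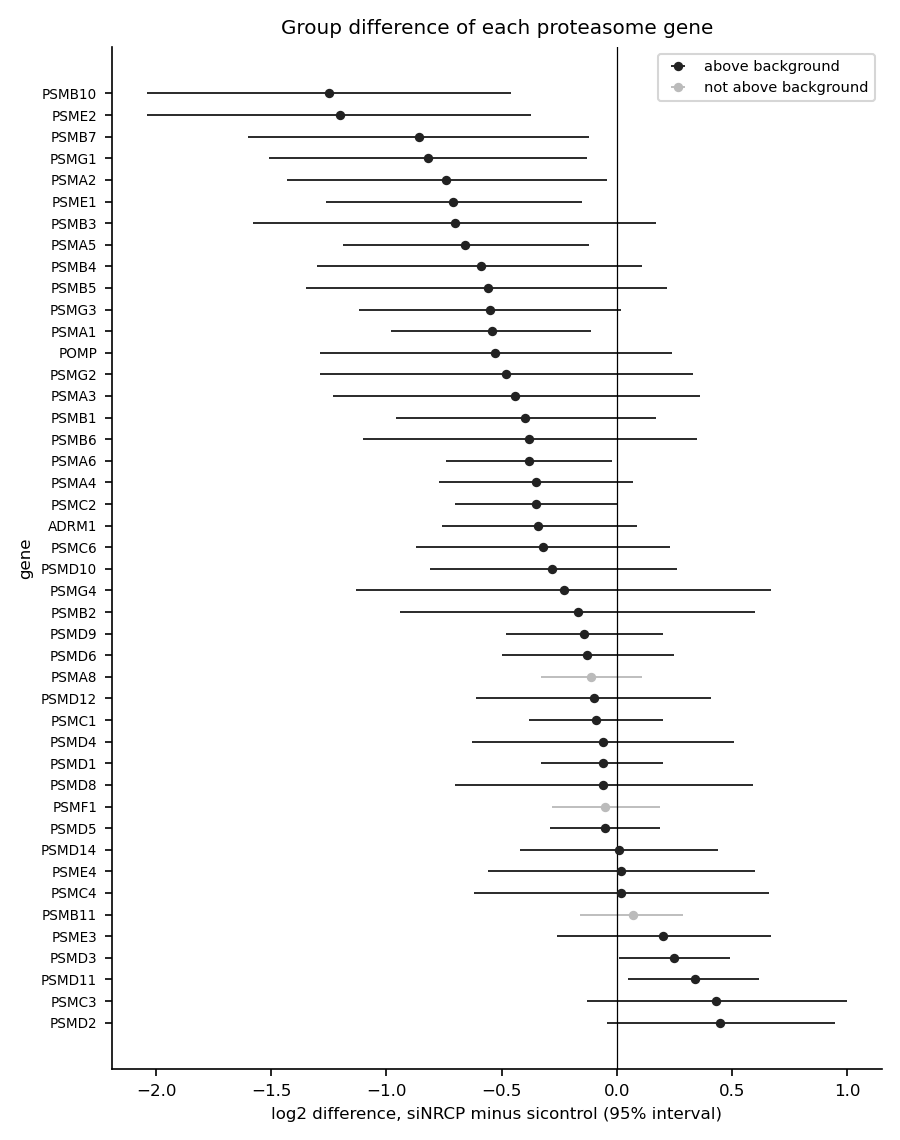
Log2 difference between siNRCP and sicontrol for all 44 proteasome genes (points) with the 95% interval of the limma fit (bars, not adjusted for the number of genes), ordered by size. Grey marks the 3 genes that were not above background. The points run from -1.25 for PSMB10 to 0.45 for PSMD2, and an adjusted p under 0.05 was reached by 0 of them.

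For 8 of the 41 genes all siNRCP arrays lay below all sicontrol arrays, and for 3 they lay above, where 14.9% and 15.7% of the named genes above background, and 8.68% and 9.15% of all probes, were separated in this way. The lower count is near the first share and the higher count below it, and neither is read as a result. A difference beyond 1.5-fold was seen for 9 of 41 downward (9.07% of named genes above background) and 0 upward (9.62%). The 8 lower genes were PSMA1, PSMA2, PSMA5, PSMA6, PSMB10, PSME1, PSME2 and PSMG1, and the 3 higher ones PSMC3, PSMD3 and PSMD11.

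The count of calls rested on siNRCP array 1. Without it, 26 of the 44 genes passed as lower and 2 as higher, where 24.5% and 29.1% of the named genes above background passed, and the median difference was -0.55. All 14 core genes above background were among the 26, together with 6 of 8 assembly genes and 4 of 15 genes of the 19S particle. Array 1 was the highest siNRCP array for 35 of the 41 genes above background, so leaving it out had to lower their differences. The siNRCP spread then came from arrays 2 and 3 alone, which correlated at 0.99 over the probes above background. The adjusted p-values of that fit follow from this choice of arrays and are not read as a result. In that fit PSMB5 was at -1.01 ± 0.11 (SE, 3 sicontrol and 2 siNRCP arrays; limma adjusted p = 5.1e-06), PSMB7 at -1.27 ± 0.12 (1.5e-06), PSMB10 at -1.66 ± 0.15 (9.8e-07) and PSME2 at -1.65 ± 0.14 (7.6e-07). PSMD2 was at 0.62 ± 0.16 (adjusted p = 0.0084) and PSME3 at 0.41 ± 0.13 (0.039). Leaving out any other single array gave 0 calls, at medians of -0.32 to -0.15. With arrays weighted by their fit to the rest, array 1 had a weight of 0.276 against 0.733 and 2.21 for arrays 2 and 3. With these weights 21 genes passed as lower and 1 as higher, where 2313 and 2846 of the 11558 named genes above background passed.

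The order of the members within the siNRCP group recurred within the sicontrol group. For each gene the mean of siNRCP arrays 2 and 3 minus array 1 was set against sicontrol array 1 minus the mean of sicontrol arrays 2 and 3, a pairing chosen after the values were seen that shares no array. Across the 41 genes Pearson's r was 0.76 and Spearman's rho 0.84, and across the 11558 named genes above background they were 0.65 and 0.61. Genes within an array share its labelling and hybridisation and are not replicates, so no p is given. PSMD2, PSME3 and PSME4 were positive in both, at 0.57, 0.35 and 0.29 in sicontrol and 0.51, 0.61 and 0.83 in siNRCP. PSMB10 and PSMG4 were the most negative in sicontrol (-0.50 and -0.85) and stood at -1.23 each in siNRCP. The scale differed, with a median of -0.87 over the members in siNRCP and -0.04 in sicontrol.

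**Figure D3:**
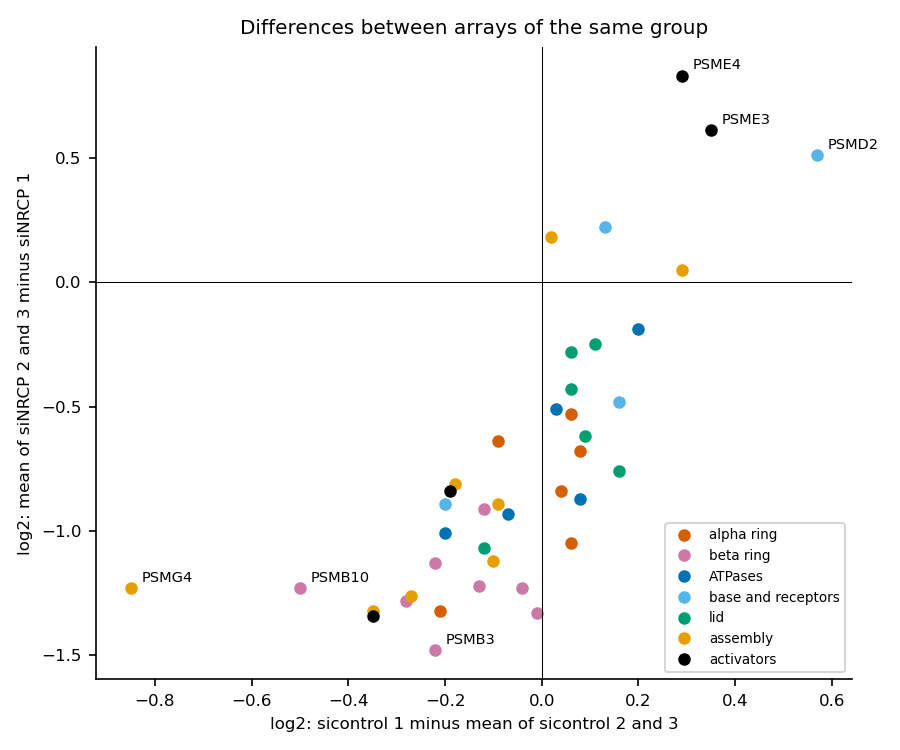
Each point is 1 of the 41 proteasome genes above background, coloured by role. The horizontal axis is the log2 signal of sicontrol array 1 minus the mean of sicontrol arrays 2 and 3, and the vertical axis is the mean of siNRCP arrays 2 and 3 minus array 1. The points climb from PSMG4 and PSMB10 at the lower left to PSME3, PSME4 and PSMD2 at the upper right.

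The difference within siNRCP, the mean of arrays 2 and 3 minus array 1, was set beside other properties whose part in it was not tested. The genomic span of the members had a median of 15314 bp, against 28072.5 bp for the named genes above background, and Spearman's rho of span with the within-siNRCP difference was 0.29 over the members and 0.42 over the named genes. Cytosolic ribosomal protein genes (72 above background) stood at a median of 0.23 on siNRCP array 1, -0.53 on array 2 and -0.62 on array 3. For 32 complex I genes these were 0.23, -0.87 and -1.0. On sicontrol arrays 1 and 2 these lists had medians of -0.26 and 0.27 (ribosomal) and -0.31 and 0.24 (complex I), where the proteasome genes stood at -0.02 and -0.01. The raw mean intensity was also lowest on siNRCP array 2. The members came from 18 chromosomes, with 7 on chromosome 14, among them the neighbours PSME1 and PSME2.

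Second probes mostly gave the same sign. Of 14 genes with at least 2 probes above background, all probes were negative in 11 and positive in 1. In PSMC4 they were between -0.07 and 0.02, and in PSMC6 between -0.32 and 0.16, which was the widest range at 0.48. Probes of PSMG1 read -0.82 and -1.09, and those of PSMA4 -0.35 and -0.62.

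Of the genes that work with the proteasome, the transcription factor gene NFE2L1 and the ubiquitin ligase gene UBE3A were higher in siNRCP. The list held 36 such genes, of which 31 were measured, and 2 passed as higher and 0 as lower, where 2.21% and 2.62% of the named genes above background passed. Its median difference was 0.07. NFE2L1, which is known to activate proteasome genes, read 8.10, 8.12 and 8.02 in sicontrol and 8.86, 9.76 and 9.39 in siNRCP, a rise of 1.26 ± 0.21 log2, or 2.39-fold (limma adjusted p = 0.037, n = 3 per group, error as SE). UBE3A, a ligase that associates with the proteasome, read 9.40, 9.50 and 9.47 against 10.20, 10.71 and 10.64, a rise of 1.06 ± 0.14 (2.09-fold; adjusted p = 0.019), and its second bright probe rose by 1.09 ± 0.18 (adjusted p = 0.033). Both genes were higher on all 3 siNRCP arrays, with the smallest rise on array 1. Against the sicontrol mean NFE2L1 stood at 0.78, 1.68 and 1.31 on siNRCP arrays 1 to 3, and UBE3A at 0.75, 1.25 and 1.19. NFE2L1 no longer passed without any 1 of the 3 sicontrol arrays or of siNRCP arrays 2 and 3 (1.04 to 1.28, adjusted p = 0.073 to 0.23), and UBE3A likewise (0.97 to 1.08, 0.067 to 0.14).

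The other linked genes named by rule did not pass. SEM1, a small lid subunit, read 11.06, 12.20 and 11.61 in sicontrol, and in siNRCP it lay within that range on array 1 and read 10.99 and 10.78 on arrays 2 and 3 (-0.36 ± 0.37, SE, n = 3 per group; limma adjusted p = 0.76), with its sicontrol arrays further apart than the group means. USP14, a deubiquitinase bound to the cap, read 9.44, 9.10 and 9.16 against 8.64, 9.02 and 9.40 (-0.21 ± 0.19; adjusted p = 0.73). UCHL5, another one, read 9.96, 9.65 and 9.82 against 9.78, 9.28 and 9.59 (-0.26 ± 0.15; adjusted p = 0.52). The groups overlapped for all 3. Named after their values were seen, VCP, the ATPase that hands substrates to the proteasome, was at 0.89 ± 0.19 (adjusted p = 0.083), and UBA1, the main ubiquitin-activating enzyme, at 0.88 ± 0.28 (0.22). The groups did not overlap for either. Also named after its values were seen, NGLY1, an enzyme that NFE2L1 needs for its activation, was at -0.37 ± 0.10 (adjusted p = 0.14), also without overlap. Of the 30 linked genes above background, 6 were separated downward and 6 upward. Among the named genes above background 14.9% and 15.7% were, and the separation of these genes is not read as a result. The probes of the ubiquitin receptor gene UBQLN1 disagreed, with the brightest at -0.69 ± 0.14 (adjusted p = 0.072) and the others at 0.26 ± 0.12 (0.39) and 0.35 ± 0.09 (0.12), so no direction is given for this gene. Second probes above background were at 0.01 for SEM1, -0.03 for USP14 and 0.73 for UBA1. NFE2L2, the relative of NFE2L1, was at 0.12 ± 0.16 (adjusted p = 0.84).

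**Figure D4:**
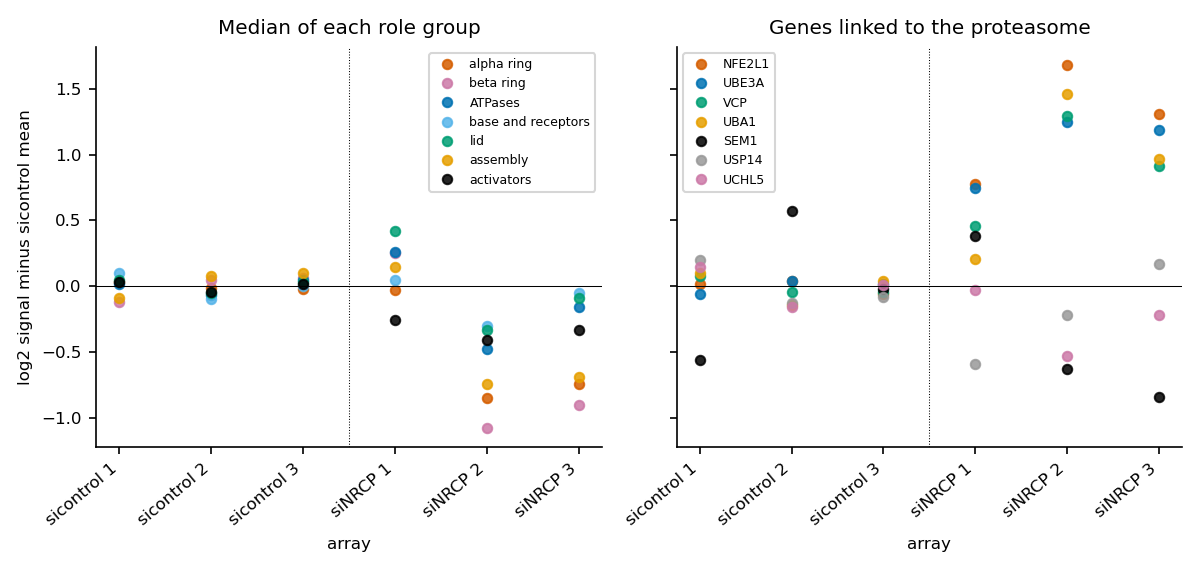
Log2 signal minus the sicontrol mean on each of the 6 arrays (horizontal axis), as the median of each role group of proteasome genes above background (left) and for 7 linked genes (right). The dotted line parts sicontrol from siNRCP. On the left the role groups spread from -0.26 to 0.42 on siNRCP array 1 and the alpha ring, beta ring and assembly groups lie lowest on arrays 2 and 3, and on the right NFE2L1, UBE3A, VCP and UBA1 lie above 0 on all 3 siNRCP arrays.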

How the data were processed

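Total RNA (500 ng per sample) was read on Illumina BeadArrays. The deposited table held non-normalized bead intensity per probe. BeadStudio is the tool named in the submitters' processing notes, without a version. The deposited series matrix held values on a log2 scale, as their match to the intensities showed: they differed by at most 0.084 from the log2 of quantile normalized intensities, with a median of 7.01 on each array. How the authors made them is not given in the sources used here.

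Intensities were corrected with normexp (offset 50), quantile normalized and put on a log2 scale. The difference siNRCP minus sicontrol was fitted over all 47231 probes with lmFit and eBayes of limma 3.58.1 under R 4.3.3, without covariate. Calls had an adjusted p under 0.05 (Benjamini-Hochberg). No filter on dim probes was set, and the background level served for description. Symbols came from the platform annotation (30113 probes with 1 symbol, 8 with several, 17110 with none; 30074 matched by Entrez identifier). The number of arrays limits the precision.

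Members, lists and tests were chosen with earlier results of these data known. Full values were given for members past the threshold, the 3 lowest and 3 highest, and 21 genes fixed by role, of which 1 was not analysed here; of the linked list, genes past the threshold, NFE2L1, USP14, UCHL5 and SEM1. Other genes are marked as named after their values were seen, or given by counts and ranges. The fit was tested on simulated data. The alternatives were other background corrections, normalizations, values and variance models, a filter, averaging over the probes of each gene, a replicate block and leaving out arrays.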

Additional observations from a re-analysis of the deposited data

How the results depend on the processing

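With no call among the members, 14 of 16 alternatives (other background corrections, normalizations, variance models, the replicate block, a filter, the mean of probes and 5 of the 6 single arrays left out) also gave 0. Array weights gave 21 genes lower and 1 higher, where 2313 and 2846 of the 11558 named genes above background passed. Leaving out 1 array gave 0 to 26 lower and 0 to 2 higher, all from the fit without siNRCP array 1. In that fit 24.5% and 29.1% of the named genes above background passed. In an alternative chosen after seeing the data, leaving out siNRCP array 1 and 1 sicontrol array together gave 23 to 28 lower and 0 to 2 higher. There 2317 to 2846 of the 11558 named genes above background passed as lower and 2740 to 3518 as higher. The median difference of -0.30 was negative throughout, from -0.55 to -0.15 over those 16 alternatives. Under median scaling it was -0.53, where the named genes above background stood at -0.14, and the 20S median was -0.82 and the 19S median -0.29. The direction of 19S genes near 0 turned with the setting, as in PSMC4 (-0.32 to 0.27) and PSMD14 (-0.25 to 0.15), while PSMD2, PSMC3 and PSMD11 were positive in all 16 alternatives and PSMB10, PSME2 and PSMB7 negative in all 16.

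Of the linked list 2 genes passed. The count was 19 with array weights (8 lower and 11 higher), where 2313 and 2846 of the 11558 named genes above background passed. It was 1 without background correction and with the series matrix values, and 0 under median scaling and with the replicate block. When 1 array was left out it was 0 to 22. The 22 (10 lower and 12 higher) came without siNRCP array 1, where 2830 and 3359 of the named genes above background passed. NFE2L1 passed in 7 of 16 alternatives (1.03 to 1.49; adjusted p = 5.6e-07 to 0.23) and UBE3A in 9 of 16 (0.82 to 1.22; 1e-06 to 0.14). The replicate number as a block left 0 calls among all 47231 probes. Whether arrays with the same number share anything beyond that number is not stated. Their deviations from the group means correlated at -0.64, -0.43 and -0.20, which cannot decide this, as deviations within a group of 3 depend on each other. Calls over all probes were 432 lower and 349 higher, against 211 and 43 under median scaling, 259 and 209 with the trend and robust options, 3983 and 4179 with array weights, 4952 and 4980 without siNRCP array 1, and 10 to 117 lower and 0 to 71 higher without any other single array. The cause of these changes was not tested. Probes of PSMA8, PSMB11 and PSMF1 at background show no change either way.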
